A study of Mus musculus with 7 samples.

Results

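The 10 genes of glycolysis and of the transcriptional answer to low oxygen described here were followed in single-cell RNA of the mouse mammary gland. They were taken by symbol from the deposited table of unique molecular identifier (UMI) counts, and all 10 symbols had a row among its 27998 genes. The members are Slc2a1, Hk2, Aldoa, Pgk1, Eno1, Pkm, Ldha, Pdk1, Hif1a and Bnip3.

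Abdominal glands came from nulliparous females of a mixed FVB, 129 and C57BL/6J background, all killed in diestrus, with 3 young mice of 3 to 4 months (Young A, B and C) and 4 aged mice of 13 to 14 months (Aged A, B, C and D). Lymph nodes were removed, the tissue was digested to single cells with enzymes at 37 °C, and each mouse gave 1 library on the 10x 3′ v2 platform, without sorting. The deposited table held 13684 cells in 13 cell types named by the authors, 1264 to 2865 cells and 6652599 to 16999625 UMIs per mouse. Between 1 and 10 cell barcodes were shared by each of the 21 pairs of libraries. Among the types compared, myoepithelial cells are the contractile outer layer of the ducts, luminal hormone-sensing (HS) cells carry the steroid receptors, luminal alveolar (AV) cells are the secretory lineage, fibroblasts make the matrix of the stroma, and pericytes wrap small vessels. The median share of mitochondrial UMIs per cell was 3.18 to 3.68% in the young and 2.48 to 2.82% in the aged libraries. Cell barcodes are written in one format for the young and in another for the aged libraries, and age and any difference in handling that goes with it cannot be told apart.

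In glycolysis, glucose enters the cell through transporters such as Slc2a1 (GLUT1) and is phosphorylated by hexokinases such as Hk2. Aldolase (Aldoa), phosphoglycerate kinase (Pgk1), enolase (Eno1) and pyruvate kinase (Pkm) then carry it to pyruvate, and lactate dehydrogenase (Ldha) turns pyruvate into lactate. When oxygen is low, the protein of Hif1a escapes hydroxylation and decay, pairs with Arnt and switches on these enzymes together with Pdk1, a kinase that inhibits pyruvate dehydrogenase and so the conversion of pyruvate to acetyl-CoA, and Bnip3, which marks mitochondria for removal. Hif1a protein is set mainly after translation, so the level of its mRNA is not a reading of its activity.

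Hypoxia-inducible factors bind the core letters ACGTG or GCGTG in promoters and enhancers. The RefSeq promoter windows of the members (GRCm38.p6, 250 bases before to 50 after a start, 17 windows for 10 genes) were searched for both words on both strands. Of these windows, 14 held a match, or 82.4%, against 43.8% of the 32851 windows of all genes (19.6% for ACGTG and 32.4% for GCGTG). Some windows of Aldoa and of Eno1 overlap each other and hold the same matched letters, so these sites enter the count more than once. All 10 members had a match in at least 1 window, as had 46.7% of 27025 genes. The member windows were also richer in G and C, with a median of 65.7% against 52.7% over all windows, and held a median of 24 CpG pairs against 7, and both words contain CpG. The words overlap where CACGTG reads as ACGTG on both strands. A match of letters is not evidence of binding. The windows of Slc2a1 and Hif1a, the members with the lowest adjusted p in the age comparison, and the Ldha window with the most matches are shown with the matched letters in capitals, 5′ to 3′ on the gene's strand.
Slc2a1, chr4:119108495-119108794, plus strand: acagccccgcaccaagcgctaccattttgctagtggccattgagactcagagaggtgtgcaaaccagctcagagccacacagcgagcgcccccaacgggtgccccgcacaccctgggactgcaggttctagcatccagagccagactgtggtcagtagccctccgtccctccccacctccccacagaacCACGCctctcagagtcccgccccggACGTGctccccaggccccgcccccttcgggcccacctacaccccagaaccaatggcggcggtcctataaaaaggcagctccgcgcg
Hif1a, chr12:73907617-73907916, plus strand: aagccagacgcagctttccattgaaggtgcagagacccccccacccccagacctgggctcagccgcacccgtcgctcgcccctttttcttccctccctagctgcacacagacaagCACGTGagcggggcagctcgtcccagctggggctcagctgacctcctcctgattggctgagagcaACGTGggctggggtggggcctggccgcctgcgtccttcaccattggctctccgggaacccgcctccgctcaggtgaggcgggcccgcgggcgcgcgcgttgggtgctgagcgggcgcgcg
Ldha, chr7:46845554-46845853, plus strand: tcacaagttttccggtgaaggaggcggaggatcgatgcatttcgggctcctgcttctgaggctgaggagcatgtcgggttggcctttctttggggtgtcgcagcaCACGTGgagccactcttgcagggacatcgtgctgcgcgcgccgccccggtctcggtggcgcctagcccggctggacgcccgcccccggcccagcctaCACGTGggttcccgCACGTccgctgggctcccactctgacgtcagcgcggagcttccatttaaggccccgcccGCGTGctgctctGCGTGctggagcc

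The Slc2a1 window held 1 match to each word. The Hif1a window held 3 matches to ACGTG, 2 of which were the strands of 1 CACGTG palindrome, and none to GCGTG. The Ldha window held 5 matches to ACGTG, among them 2 palindromes, and 2 to GCGTG. In GENCODE vM21 on GRCm38, Slc2a1 lies on chromosome 4 at 119108711 to 119137983, Hif1a on chromosome 12 at 73901375 to 73947530 and Hk2 on chromosome 6 at 82725025 to 82774454. In that annotation a further protein-coding locus, Gm49321, overlaps Hif1a on the same strand, and the name Aldoa is given to 2 adjacent loci on chromosome 7. The gene annotation behind the deposited counts was not known, so whether reads there were split between loci was not tested.

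Each level was first described per cell type, as CPM, the UMIs of the gene scaled to a common total, over the summed cells of a mouse with at least 3 cells of that type. These levels carry no test, because the cell types were defined from the same cells. Members of the pathway had their highest levels in different cell types. Slc2a1 was highest in myoepithelial cells, at 198 ± 114 CPM (mean ± SD, n = 7 mice), followed by lymphatic endothelium at 96.4 ± 63.1 CPM (n = 5). The difference lay within the larger SD, which pools both ages. Myoepithelial cells stood at 73.7 to 104 CPM in young and 238 to 382 CPM in aged mice, and lymphatic endothelium at 0 to 157 CPM over both ages. Hk2 was highest in fibroblasts, at 722 ± 302 CPM (n = 7), with Macrophage Mb at 508 ± 196 CPM (n = 7) and Macrophage Ma at 489 ± 261 CPM (n = 3) next. Macrophage Ma exceeded the following type, luminal HS-AV, by more than the larger SD and in 3 of 3 mice. Hk2 was lowest in vascular endothelium, at 10.8 ± 19.2 CPM (n = 7), and lymphatic endothelium, at 10.6 ± 23.6 CPM (n = 5).

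Among the lower steps of the pathway, Pkm was the clearest case. Its mean was 610 ± 33.6 CPM in luminal HS cells and 434 ± 81.2 CPM in myoepithelial cells (n = 7 each), a gap larger than the SD of either and present in 7 of 7 mice, and fibroblasts were lowest at 128 ± 23.5 CPM (n = 7). Aldoa was also highest in luminal HS cells, at 609 ± 79.6 CPM (n = 7), within the SD of lymphatic endothelium at 540 ± 218 CPM (n = 5). Ldha was highest in myoepithelial cells, at 596 ± 131 CPM, then in vascular endothelium, at 507 ± 50.2 CPM, and in pericytes, at 431 ± 72.7 CPM (n = 7 each). Vascular endothelium exceeded pericytes by more than the larger SD and in 6 of 7 mice. Eno1 was highest in NK cells (272 ± 168 CPM, n = 5) and T and B cells (245 ± 211 CPM, n = 7), types of few cells, and none of its 12 steps between neighbouring cell types exceeded the larger SD. Pgk1 was counted at low level everywhere, with 584 UMIs in all, and its highest mean, in T and B cells, was 17.3 ± 29.9 CPM (n = 7).

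Of the hypoxia genes, Hif1a had its highest means in vascular endothelium (211 ± 78.7 CPM), luminal HS cells (185 ± 86.8 CPM, n = 7 each), luminal HS-AV cells (173 ± 91.9 CPM, n = 6) and pericytes (155 ± 50.9 CPM, n = 7). The order lay within these SDs, which pool both ages. In young mice luminal HS cells stood at 266 to 293 CPM and vascular endothelium at 112 to 165 CPM. In aged mice the order was reversed, with endothelium at 245 to 310 CPM and luminal HS cells at 97.8 to 145 CPM. Pericytes exceeded the next type, T and B cells at 88.3 ± 61.1 CPM, in 6 of 7 mice. Luminal AV cells were among the lowest, at 38.1 ± 23.2 CPM (n = 7). Bnip3 was highest in luminal HS cells, at 20.0 ± 11.6 CPM, and Pdk1 in NK cells, at 42.2 ± 65.3 CPM (n = 5), where its SD exceeded its mean. Luminal AV cells, 4820 of the 13684 cells, gave 46.1% of the 835 Pdk1 UMIs. Their mean of 14.2 ± 6.66 CPM lay beside 15.9 ± 12.8 CPM in pericytes and 13.5 ± 11.1 CPM in myoepithelial cells (n = 7 each).

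**Figure D1:**
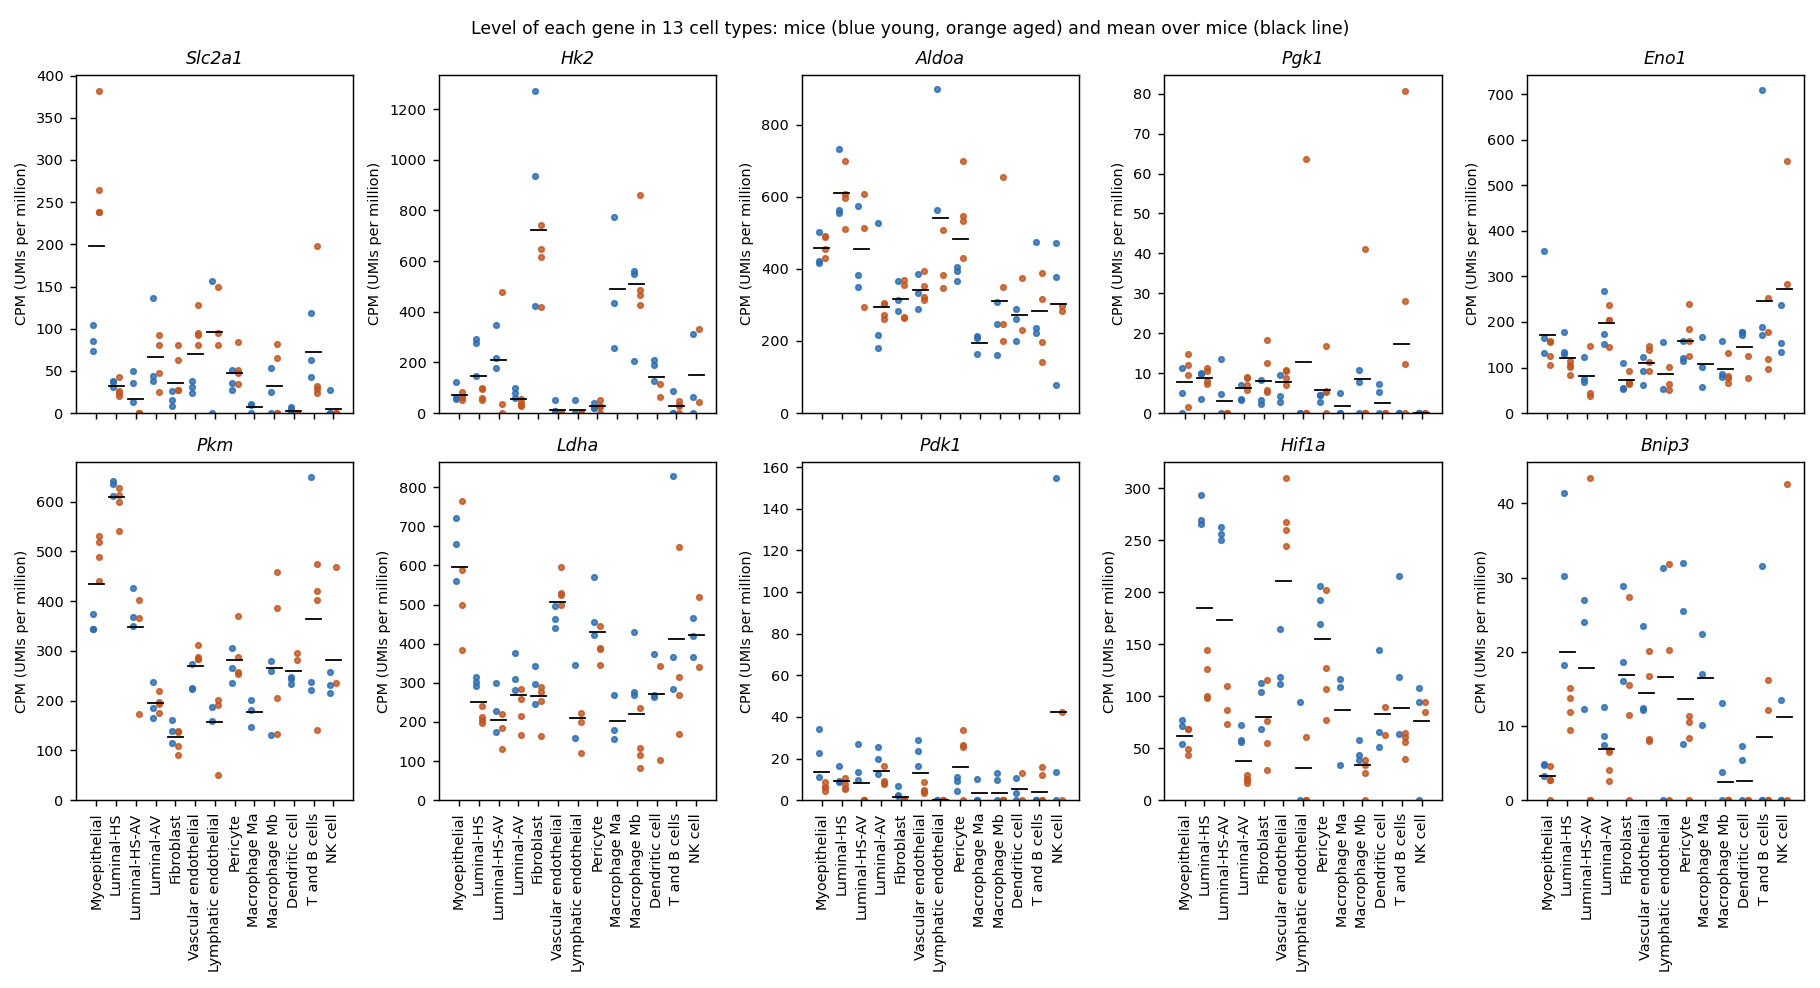
CPM of each of the 10 genes (vertical axis, linear from 0, scaled per panel) in the 13 cell types (horizontal axis), with 1 point per mouse of at least 3 cells, blue for young and orange for aged, and a black line at the mean over mice. Hk2 stands high in fibroblasts and macrophages, Pkm in luminal HS cells and Slc2a1 in myoepithelial cells of aged mice, while Pgk1, Pdk1 and Bnip3 stay low.

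Genes outside the list with the most similar order of levels over the 13 types were found by Pearson's r of log2(mean CPM + 1) among 11615 genes, as a description over types that share libraries. The nearest to Slc2a1 were Nsfl1c (r = 0.88) and Ccdc86 (r = 0.85). Hk2 was nearest to Il18 (r = 0.89) and Dnase2a (r = 0.88), Hif1a to Syt7 (r = 0.90) and Gcnt2 (r = 0.86), and Ldha to Chst11 (r = 0.89) and Ube2d3 (r = 0.88). The other members had nearest genes of r = 0.84 (Aldoa with Isyna1 and Pkm with Tbc1d1) to 0.94 (Bnip3 with Stub1), with Eno1 nearest to Mrpl46 (r = 0.90), Pgk1 to Zfp64 (r = 0.91) and Pdk1 to Mina (r = 0.93). These r were picked as the largest of 11615 genes over 13 types, and the size that chance would give was not computed. Bnip3, Pdk1 and Pgk1 rest on few UMIs, 975, 835 and 584 in all. Among the members themselves, r over the 13 types ran from -0.54 (Slc2a1 with Hk2) to 0.79 (Slc2a1 with Pgk1), so no common order was shared by the list.

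Rows of near-identical copies were small beside the members. Eno1b had 263 UMIs against 12967 for Eno1, and Pgk1-rs7 had 25 against 584 for Pgk1, so reads of Pgk1 and Eno1 that fit a copy equally well may be missing from their rows, and both rows are uncertain for this reason. The other isozymes include Hk1 at 25.1 to 34.7 CPM and Aldoc at 37.0 to 49.9 CPM in the young and 156 to 195 CPM in the aged libraries, over all cells.

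Summed over all cells of a library, Hk2 and Hif1a were lower and Slc2a1 was higher in the aged mice. Hk2 stood at 160, 249 and 542 CPM in Young A, B and C and at 90.9, 49.9, 54.1 and 40.7 CPM in Aged A, B, C and D. Hif1a stood at 130, 173 and 168 CPM in the young and between 61.7 and 69.4 CPM in the aged libraries. Slc2a1 stood between 30.4 and 48.8 CPM in the young and between 69.9 and 115 CPM in the aged libraries. Pkm stood at 327 to 353 CPM in the young and 249 to 318 CPM in the aged libraries. Bnip3 stood at 12.5 to 27.4 CPM and 4.02 to 8.82 CPM. The share of all genes whose young and aged ranges lie apart in such sums was not counted. That these ranges lie apart is therefore not read as a result about the members. In such sums a change in the cells of a type and a change in RNA per cell cannot be told apart. Fibroblasts gave 57.7% of all Hk2 UMIs and made up 14.6 to 36.1% of the cells of young and 1.09 to 7.34% of the cells of aged mice. Luminal HS cells gave 40.7% of Hif1a, 37.1% of Pkm and 38.8% of Bnip3 UMIs. They made up 18.8 to 30.2% of cells in young and 5.94 to 9.83% in aged mice. Luminal AV cells gave 39.3% of Slc2a1 UMIs and made up 8.23 to 14.0% of cells in young and 52.2 to 66.4% in aged mice. Myoepithelial cells gave 32.6% of Slc2a1 UMIs and made up 1.88 to 8.34% and 9.12 to 24.1% of cells. The age comparison was therefore made within each cell type.

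Counts of each mouse were summed per cell type and compared between ages in 8 cell types with the quasi-likelihood test of edgeR, and a gene was called at an adjusted p below 0.05 and a change of at least 1.5-fold. Levels in this comparison are TMM-scaled CPM (CPM after the trimmed mean of M values correction), log2 differences are aged over young with their standard error (SE), and adjusted p-values are over all genes tested in the type.

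The largest number of members changed in vascular endothelium, the lining of blood vessels, where 7 of the 10 members were called against 26.7% of the 7864 genes tested there. The glucose transporter Slc2a1, the later glycolytic enzymes Pgk1, Eno1 and Pkm, and Hif1a were higher in aged mice. Hk2 and Pdk1 were lower. Higher calls made up 14.7% and lower calls 12% of all genes tested. The median log2 difference of the 10 members was 0.59, beside -0.05 over all genes tested. Because the members were chosen with earlier results of these data known, their shares are not independent of the data, here and below.

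Slc2a1 in vascular endothelium stood at 19.5, 27.3 and 34.2 scaled CPM in Young A, B and C and at 144, 85.2, 104 and 109 scaled CPM in Aged A, B, C and D. Every aged mouse lay above every young mouse, and the log2 difference was 2.08 ± 0.23 (SE, adjusted p = 3.33e-05, edgeR). The share of endothelial cells with an Slc2a1 UMI, after each cell was thinned to 2000 UMIs, was 6.27% (mean of 3 young mice, 3.91 to 8.28%) and 18.7% (mean of 4 aged mice, 12.6 to 23.0%). Without thinning the means were 13.2% and 33.9%. The lowest shares were 1.64% in Macrophage Ma after thinning (4.10% before it) and 3.10% in dendritic cells before thinning (1.77% after it). Median depth was 4907 UMIs per cell in vascular endothelium, 4347 in Macrophage Ma and 4648 in dendritic cells.

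Hif1a in vascular endothelium stood at 98.5, 98.7 and 147 scaled CPM in Young A, B and C and at 275, 281, 341 and 306 scaled CPM in Aged A, B, C and D. The groups did not overlap, and the log2 difference was 1.41 ± 0.17 (SE, adjusted p = 5.70e-05, edgeR). The thinned share of cells with a Hif1a UMI was 15.9 to 25.5% in young and 34.5 to 38.3% in aged mice. Lymphatic endothelium, the lowest type, had 3.57% of its 28 cells.

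Of the enzymes, Pkm stood at 229, 197 and 200 scaled CPM in the young and at 323, 299, 312 and 367 scaled CPM in the aged mice, without overlap, and its log2 difference was 0.63 ± 0.14 (SE, adjusted p = 0.00385, edgeR). Eno1 stood at 103, 81.9 and 55.0 scaled CPM in Young A, B and C and at 167, 145, 101 and 131 in the aged mice, where Aged C lay just below Young A, and differed by 0.72 ± 0.21 (SE, adjusted p = 0.0213, edgeR). Pgk1 rested on few UMIs, 21 in the young and 47 in the aged mice, and differed by 1.33 ± 0.42 (SE, adjusted p = 0.0292, edgeR), with Young C at 8.55 scaled CPM above Aged B at 7.34. Ldha stood at 368, 408 and 441 in the young and at 595, 552, 656 and 588 scaled CPM in the aged mice, without overlap. Its log2 difference of 0.55 ± 0.13 (SE, adjusted p = 0.00684, edgeR) passed the test but stayed under 1.5-fold. Aldoa, at 0.39 ± 0.15 (adjusted p = 0.0587), and Bnip3, at 0.01 ± 0.38 (adjusted p = 0.992), were not called by edgeR. In CPM without the TMM correction these enzymes differed less, and the calls refer to scaled levels. Unscaled Pkm stood at 224 to 274 CPM in young and 283 to 312 CPM in aged mice. Ldha stood at 441 to 496 and 500 to 595 CPM. Eno1, at 61.8 to 123 and 91.8 to 148 CPM, overlapped, as did Aldoa, at 287 to 385 and 315 to 394 CPM.

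Pdk1 in vascular endothelium stood at 19.9, 25.4 and 14.7 scaled CPM in the young and at 4.77, 3.67, 9.81 and 5.97 in the aged mice, without overlap, a log2 difference of -1.79 ± 0.34 (SE, adjusted p = 0.00140, edgeR). Hk2 had the largest difference and the fewest UMIs, 73 in the young and 5 in the aged mice. It stood at 7.71, 7.19 and 47.7 scaled CPM in Young A, B and C and at 2.38, 1.47, 0.981 and 0 in Aged A, B, C and D, and its log2 difference was -3.81 ± 0.93 (SE, adjusted p = 0.00778, edgeR). Without Young C, the highest mouse, the difference was -2.67 (adjusted p = 0.00813, edgeR). Young C also had the highest Hk2 in fibroblasts, at 1267 scaled CPM.

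Markers of other cell types moved with age in the same endothelial sums. The 5 fibroblast markers, all detected at both ages, summed to 44.1 to 159 CPM in young and 11.7 to 33.9 CPM in aged mice, and the 3 pericyte markers to 98.6 to 346 against 5.59 to 66.8 CPM. The 4 red blood cell markers summed to 2019 to 5267 against 6.98 to 357 CPM, and the 4 adipocyte markers to 52.5 to 62.6 CPM against 0 for every one of them in the aged mice. The 3 myeloid markers went the other way, from 197 to 598 up to between 617 and 8699 CPM, highest in Aged A. The 5 endothelial markers themselves summed to between 1836 and 2301 CPM over all 7 mice. In endothelial cells without a UMI of the 5 fibroblast markers, 7 members were again called, with Ldha called and Hk2 under the low-count filter and so not tested, at 4.73, 5.74 and 35.2 CPM in the young and 0 to 2.16 CPM in the aged mice. Without Aged A, Slc2a1 differed by 1.94 and Hif1a by 1.46 on the log2 scale. The part of the other markers in these results was not tested.

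Calls of 3 members in vascular endothelium depended on single mice. Eno1 was not called without Young B (log2 0.72, adjusted p = 0.0676, edgeR) or Young C (0.55, 0.0666), and Pgk1 not without Young A (1.20, adjusted p = 0.126), Young B (0.98, 0.155) or Aged D (1.21, 0.0766). Pkm fell under 1.5-fold without Aged D (0.57, adjusted p = 0.0141, edgeR).

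**Figure D2:**
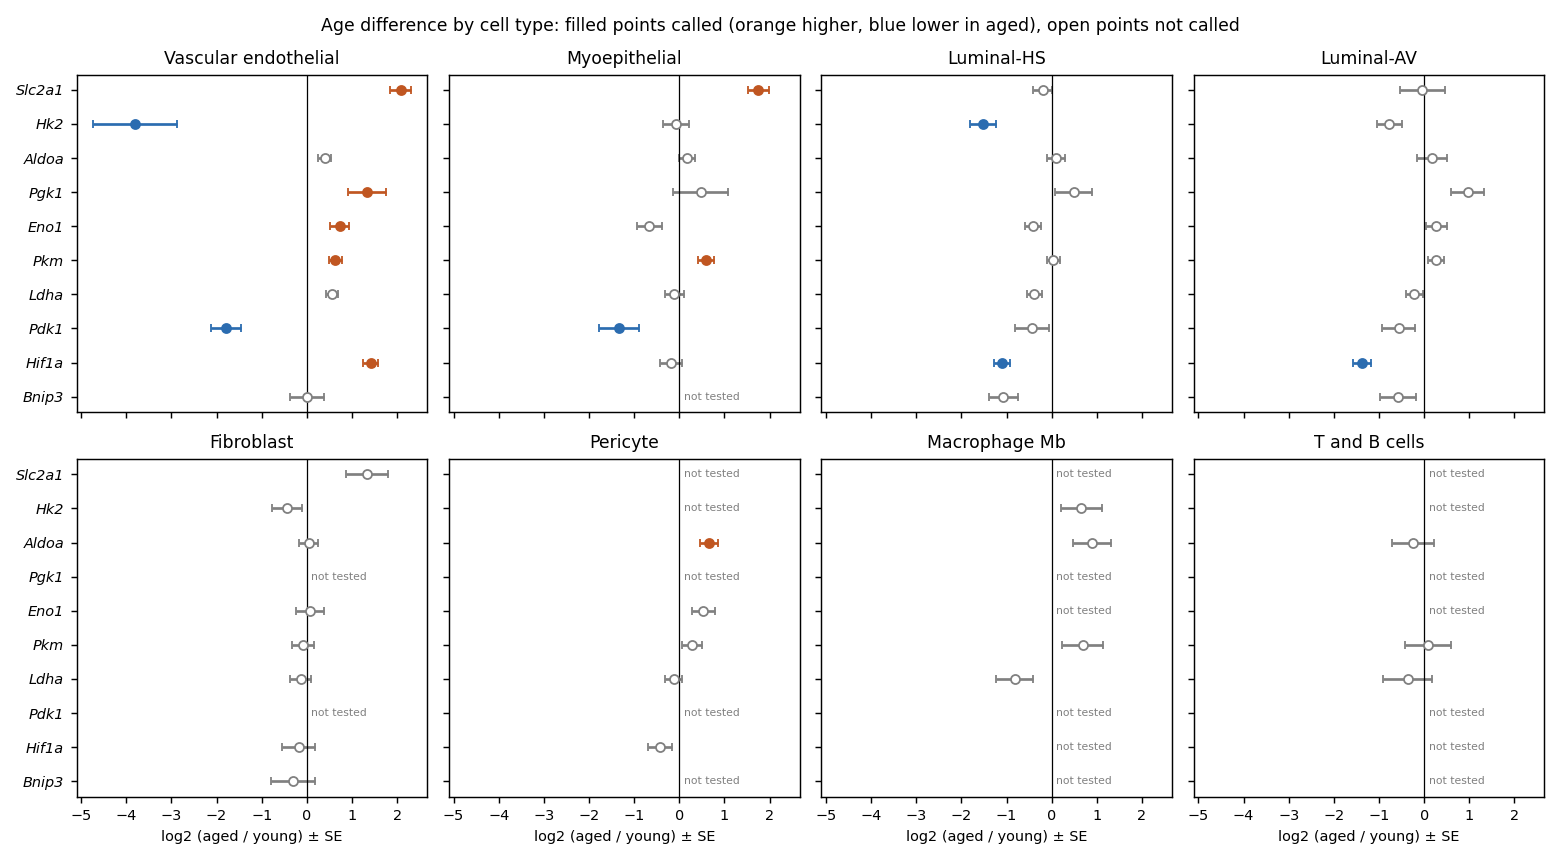
Log2 difference (aged over young, horizontal axis) with its SE for each of the 10 genes (vertical axis) in 8 cell types, filled where called, orange for higher and blue for lower in aged mice, and open where not called. Hif1a lies right of 0 in vascular endothelium and left of 0 in both luminal types, and Slc2a1 is far right of 0 in vascular endothelium and myoepithelial cells.

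In myoepithelial cells 3 of 9 tested members were called, against 27.6% of the 6740 genes tested in this type, a share like that of all genes. Slc2a1 and Pkm were higher and Pdk1 was lower in the aged mice. Slc2a1 stood at 84.2, 67.1 and 101 scaled CPM in Young A, B and C and at 368, 247, 270 and 269 scaled CPM in Aged A, B, C and D, without overlap. The log2 difference was 1.75 ± 0.23 (SE, adjusted p = 5.67e-05, edgeR). The thinned share of myoepithelial cells with an Slc2a1 UMI was 12.8 to 22.2% in young and 33.5 to 48.5% in aged mice.

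Pkm in myoepithelial cells stood at 337, 313 and 363 scaled CPM in the young and at 511, 507, 451 and 586 in the aged mice, without overlap, and differed by 0.59 ± 0.18 on the log2 scale (SE, adjusted p = 0.0231, edgeR). Pdk1, with 70 UMIs, stood at 11.1, 31.3 and 22.1 scaled CPM in the young and between 5.15 and 8.95 in the aged mice, a log2 difference of -1.34 ± 0.44 (SE, adjusted p = 0.0323, edgeR). Pkm was not called without Young A (0.58, adjusted p = 0.0763), Young B (0.57, 0.0513) or Aged D (0.50, 0.0689), nor Pdk1 without Young B (-1.04, 0.126) or Young C (-1.18, 0.117), all by edgeR. Eno1 differed by -0.66 ± 0.27 (adjusted p = 0.0797, edgeR), which became a call without Young B (-0.88, adjusted p = 0.0241). Hk2 (-0.07 ± 0.28), Ldha (-0.11 ± 0.21), Aldoa (0.17 ± 0.18), Pgk1 (0.48 ± 0.61) and Hif1a (-0.18 ± 0.24) were not called. In the myoepithelial sums the 5 fibroblast markers stood at 54.1 to 213 CPM in young and 4.56 to 27.6 CPM in aged mice, and the 3 myeloid markers at 167 to 256 against 34.8 to 73.6 CPM. In cells without a fibroblast marker UMI, Slc2a1 differed by 1.65 and was called, Pkm was no longer called (0.50, adjusted p = 0.0572, edgeR), Eno1 became a call (-0.75, adjusted p = 0.0424) and Pdk1 was below the low-count filter.

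In the luminal cells Hif1a went down with age in both types. In luminal HS cells it stood at 244, 289 and 259 scaled CPM in Young A, B and C and at 116, 160, 98.7 and 112 in Aged A, B, C and D, and the log2 difference was -1.11 ± 0.18 (SE, adjusted p = 0.00759, edgeR). In luminal AV cells it stood at 48.8, 52.5 and 66.2 scaled CPM in the young and at 25.6, 20.2, 22.3 and 18.6 in the aged mice, with a log2 difference of -1.38 ± 0.20 (SE, adjusted p = 0.00331, edgeR). Young and aged mice did not overlap in either type. The thinned share of cells with a Hif1a UMI went from 37.4 to 42.1% in young to between 14.0 and 23.5% in aged mice in luminal HS cells, and from 8.65 to 10.9% to between 2.84 and 4.88% in luminal AV cells.

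Luminal HS cells had 2 members called of 10, against 6.26% of 8457 genes tested (3.93% higher and 2.33% lower), and luminal AV cells had 1 of 10, against 6.16% of 11012 (2.9% higher and 3.26% lower). All 3 calls were lower in aged mice. The other call in HS cells was Hk2, at 133, 289 and 269 scaled CPM in the young and 93.1, 104, 61.7 and 56.6 in the aged mice, without overlap (log2 -1.52 ± 0.28, adjusted p = 0.0139, edgeR). It was not called without Young B (-1.33, adjusted p = 0.0526) or Young C (-1.39, 0.0595). Bnip3 in HS cells differed by -1.07 ± 0.32 (adjusted p = 0.0699, edgeR) and was called without Young A (-1.36, adjusted p = 0.0249). Eno1 and Ldha in HS cells differed by -0.41 ± 0.17 and -0.38 ± 0.16 and were not called. In AV cells the largest differences that were not called were Pgk1, at 0.96 ± 0.36 (adjusted p = 0.138), and Hk2, at -0.77 ± 0.28 (adjusted p = 0.130), by edgeR. Slc2a1 varied within each age in AV cells, at 38.2, 34.5 and 124 scaled CPM in the young and 28.2 to 98.9 in the aged mice. The 5 fibroblast markers summed to 11.1 to 86.4 CPM in young and 0 to 11.4 CPM in aged HS cells and to 32.4 to 184 against 2.45 to 6.75 CPM in AV cells. The 3 myeloid markers summed to 66.9 to 84.5 CPM in young and 8.15 to 43.8 CPM in aged HS cells and to 102 to 162 against 12.5 to 63.7 CPM in AV cells. The 4 red blood cell markers summed to 14.0 to 608 against 1.23 to 6.44 CPM in AV cells, without overlap, and to 35.7 to 1636 against 8.27 to 56.9 CPM in HS cells, with overlap. The HS markers inside AV cells stood at 193 to 277 CPM in young and 30.0 to 39.3 CPM in aged mice, and Hif1a itself was higher in HS than in AV cells. In cells without a fibroblast marker UMI, Hif1a and Hk2 in HS cells and Hif1a in AV cells were again called, and the part of the HS, myeloid and red blood cell markers was not tested.

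**Figure D3:**
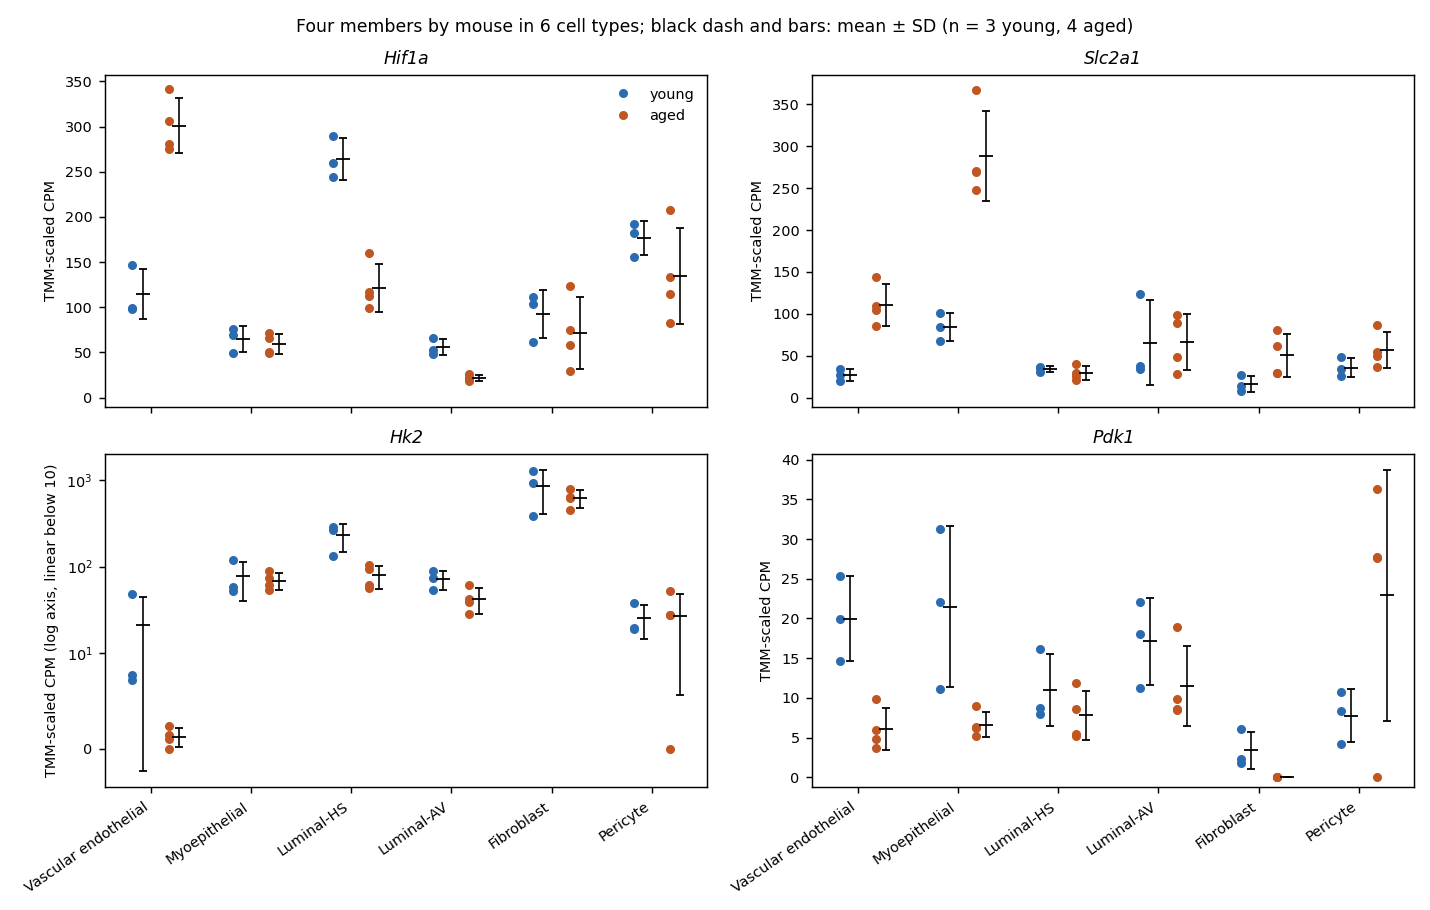
TMM-scaled CPM of Hif1a, Slc2a1, Hk2 and Pdk1 (vertical axes, linear except Hk2, which is logarithmic above 10) in 6 cell types, with 1 point per mouse, blue for the 3 young and orange for the 4 aged, and black marks for mean ± SD. Hif1a is higher in the aged points of vascular endothelium, 275 to 341, and lower in those of luminal HS cells, 98.7 to 160.

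In fibroblasts 0 of 8 tested members were called by edgeR, against 3.17% of 5513 genes (2.07% higher and 1.11% lower), with 1 at an unadjusted p below 0.05 and 0 called by DESeq2. That member was Slc2a1, at 13.9, 7.95 and 26.4 scaled CPM in the young and 29.5, 81.1, 62.0 and 29.2 in the aged mice, which did not overlap (log2 1.33 ± 0.47, adjusted p = 0.138, edgeR). The aged values rest on 16, 14, 5 and 3 Slc2a1 UMIs in Aged A, B, C and D, and Young B had 7. The aged mice gave 121, 41, 15 and 17 fibroblasts, so differences in this type were harder to detect. Hk2, most abundant in this type, stood at 383, 921 and 1267 scaled CPM in the young and 794, 620, 633 and 448 in the aged mice, which overlapped (log2 -0.44 ± 0.33, adjusted p = 0.504, edgeR). Pdk1 was not tested in fibroblasts. It had 29 UMIs in the young mice and 0 of 942268 UMIs in the aged mice, which allows up to 3.18 CPM for 3 counts. Intervals and limits of this kind cover counting error only.

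In pericytes 1 of 5 tested members was called, against 11.8% of 2601 genes (7.19% higher and 4.61% lower). Aldoa stood at 366, 383 and 336 scaled CPM in the young and 719, 571, 460 and 570 in the aged mice, without overlap (log2 0.66 ± 0.20, adjusted p = 0.0486, edgeR). The call was lost without any 1 of 6 mice, all but Aged C, with log2 differences of 0.51 to 0.69 and adjusted p-values of 0.0691 (without Aged D) to 0.157 (without Young C). In the pericyte sums the 7 myoepithelial markers, several of them contractile genes that pericytes share, stood at 2107 to 2671 CPM in young and 5907 to 12685 CPM in aged mice. The 5 fibroblast markers stood at 340 to 466 against 45.2 to 185 CPM, and the red blood cell markers reached 16012 CPM in Aged C. Their part in the Aldoa result was not tested. Hif1a in pericytes, at -0.43 ± 0.26 (adjusted p = 0.322), and Ldha, at -0.13 ± 0.20 (adjusted p = 0.725), were not called by edgeR. In Macrophage Mb and in T and B cells, with 3 to 90 and 4 to 19 cells per mouse, 0 of 4 and 0 of 3 tested members were called, 0 at an unadjusted p below 0.05 and 0 by DESeq2, where 1.16% of 859 and 0.656% of 457 genes were called. Differences there were hardly detectable at this depth.

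Whether the age differences of a member differed between cell types was tested over 6 types with the mouse as a block. The test passed for 7 of 10 members, against 27.8% of 10643 genes. These were Hif1a (adjusted p = 4.70e-08), Slc2a1 (3.68e-05), Eno1 (0.000241), Hk2 (0.00179), Pkm (0.00426), Ldha (0.00792) and Pdk1 (0.0177) in edgeR. Relative to luminal AV cells, the log2 age difference of Hif1a was 2.80 higher in vascular endothelium, 1.27 higher in myoepithelial cells and 0.16 higher in luminal HS cells. That of Slc2a1 was 2.02 higher in vascular endothelium and 1.86 higher in myoepithelial cells. The departures of Eno1 from AV cells were 0.44 in vascular endothelium and 0.21 in pericytes. They were -0.86 in luminal HS cells, -0.74 in myoepithelial cells and -0.47 in fibroblasts. The largest departures of Pdk1 from AV cells were -4.94 in fibroblasts, with 0 UMIs in the aged mice, and 2.19 in pericytes, with 25 UMIs. In both types Pdk1 was under the low-count filter of the age comparison. Its departures were -1.12 in vascular endothelium and -0.51 in myoepithelial cells. Aldoa (adjusted p = 0.183), Bnip3 (0.314) and Pgk1 (0.668) did not pass. Each mouse left out in turn gave 6 or 7 members, with Ldha lost without Young A or Young C, Pdk1 and Pkm lost and Aldoa gained without Young B, and Pdk1 lost without Aged B or Aged D.

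The rest of the pathway was read from 4 lists of 66 genes in all, which include the members and were likewise chosen with earlier results known. Their counts stand beside calls, over all genes tested, of 14.7% higher and 12% lower in vascular endothelium, 12.8% and 14.8% in myoepithelial cells, 3.93% and 2.33% in luminal HS cells, 2.9% and 3.26% in luminal AV cells and 7.19% and 4.61% in pericytes. Of the 18 glycolytic enzymes in vascular endothelium, 15 were tested, 8 were higher and 1, Hk2, was lower, all on TMM-scaled levels. Their median log2 difference was 0.59 beside -0.05 over all genes. The higher calls included Pfkl, the liver form of phosphofructokinase, at 0.96 ± 0.21 (adjusted p = 0.00340), and Gapdh, which makes NADH midway in glycolysis, at 0.86 ± 0.15 (adjusted p = 0.000667, both edgeR). In myoepithelial cells 15 enzymes were tested, with Pkm higher and Ldhb, the other main subunit of lactate dehydrogenase, lower at -1.72 ± 0.24 (adjusted p = 0.000111, edgeR), and the median was -0.03. In luminal AV cells 2 of 16 enzymes were higher, Pfkl at 1.03 ± 0.23 and Gpi1, which follows hexokinase, at 0.90 ± 0.18. In pericytes 2 of 10 were higher, Aldoa and Tpi1 (1.25 ± 0.25), and in luminal HS cells 1 of 16, Hk2, was lower. In fibroblasts, Macrophage Mb and T and B cells 0 of 12, 0 of 6 and 0 of 4 were called.

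Of the 17 genes of sugar and lactate transport and of the pyruvate and fructose-bisphosphate switches, Slc2a1 was higher and Pdk1 lower in both vascular endothelium (10 tested) and myoepithelial cells (9 tested). In luminal AV cells 1 of 12 was higher, Pdk4, a kinase that acts on pyruvate dehydrogenase as Pdk1 does. It stood at 12.6, 16.4 and 7.90 scaled CPM in the young and 299, 143, 144 and 216 in the aged mice, a log2 difference of 4.14 ± 0.38 (SE, adjusted p = 0.000558, edgeR). In luminal HS cells 1 of 11 was lower, Pdhb, a subunit of pyruvate dehydrogenase, at -0.76 ± 0.18. Of the list, 5 were tested in fibroblasts and 1 in pericytes, and 0 were called.

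Of the 10 hypoxia-inducible factors and oxygen sensors, 5 were tested in vascular endothelium, and while Hif1a was higher, 2 were lower. Epas1, the second alpha subunit and the one typical of endothelium, stood at 341, 488 and 363 scaled CPM in the young and 178, 214, 228 and 258 in the aged mice (log2 -0.86 ± 0.17, adjusted p = 0.00171, edgeR). Egln1, the prolyl hydroxylase that marks the alpha subunits for decay, differed by -1.80 ± 0.35 (adjusted p = 0.00177, edgeR). In myoepithelial cells, where 14.8% of all genes were lower, 2 of 6 were lower, Epas1 (-1.04 ± 0.33) and Egln2, another hydroxylase (-1.01 ± 0.26). In luminal HS and AV cells Hif1a was the 1 gene called, of 7 and 8 tested, and in fibroblasts and pericytes 0 of 4 and 0 of 2 were called.

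Of 22 targets outside glycolysis, 17 were tested in vascular endothelium, 7 were higher and 3 lower, beside 14.7% and 12% of all genes, and the median was 0.32. The 3 lower calls of 17 are near the share over all genes. The largest differences were in Angptl4, a secreted inhibitor of lipoprotein lipase (-2.58 ± 0.18), Ndufa4l2, a mitochondrial protein (-2.57 ± 0.46), Vegfa, the vascular growth factor (1.34 ± 0.44), and Adm, the vasodilator peptide adrenomedullin (-1.10 ± 0.25). Angptl4, which adipocytes also make, stood at 369, 607 and 419 scaled CPM in the young and 68.7 to 83.4 in the aged mice, and the adipocyte markers moved the same way in these sums. The pericyte markers also fell there, and their part in the Ndufa4l2 difference was not tested. In myoepithelial cells 4 of 15 were higher and 4 lower, beside 12.8% and 14.8% of all genes. Ndrg1, a stress-responsive gene, stood at 67.6, 71.6 and 78.9 scaled CPM in the young and 418, 355, 401 and 689 in the aged mice (log2 2.69 ± 0.27, adjusted p = 5.55e-06, edgeR). Ddit4, an inhibitor of mTORC1, differed by 2.29 ± 0.25, Vegfa by 2.15 ± 0.32 and Hilpda, a lipid droplet protein, by 1.46 ± 0.31. In luminal HS cells Ddit4 was higher (1.10 ± 0.22) and Higd1a, a mitochondrial protein, lower (-0.73 ± 0.16) of 17 tested. In luminal AV cells Angptl4 was higher (2.35 ± 0.43) and Stc2, a secreted glycoprotein, lower (-2.06 ± 0.31) of 18 tested. Angptl4 thus went in opposite directions in vascular endothelium and AV cells, a difference that was not tested. In fibroblasts, pericytes and Macrophage Mb 0 of 16, 0 of 8 and 0 of 2 targets were called.

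**Figure D4:**
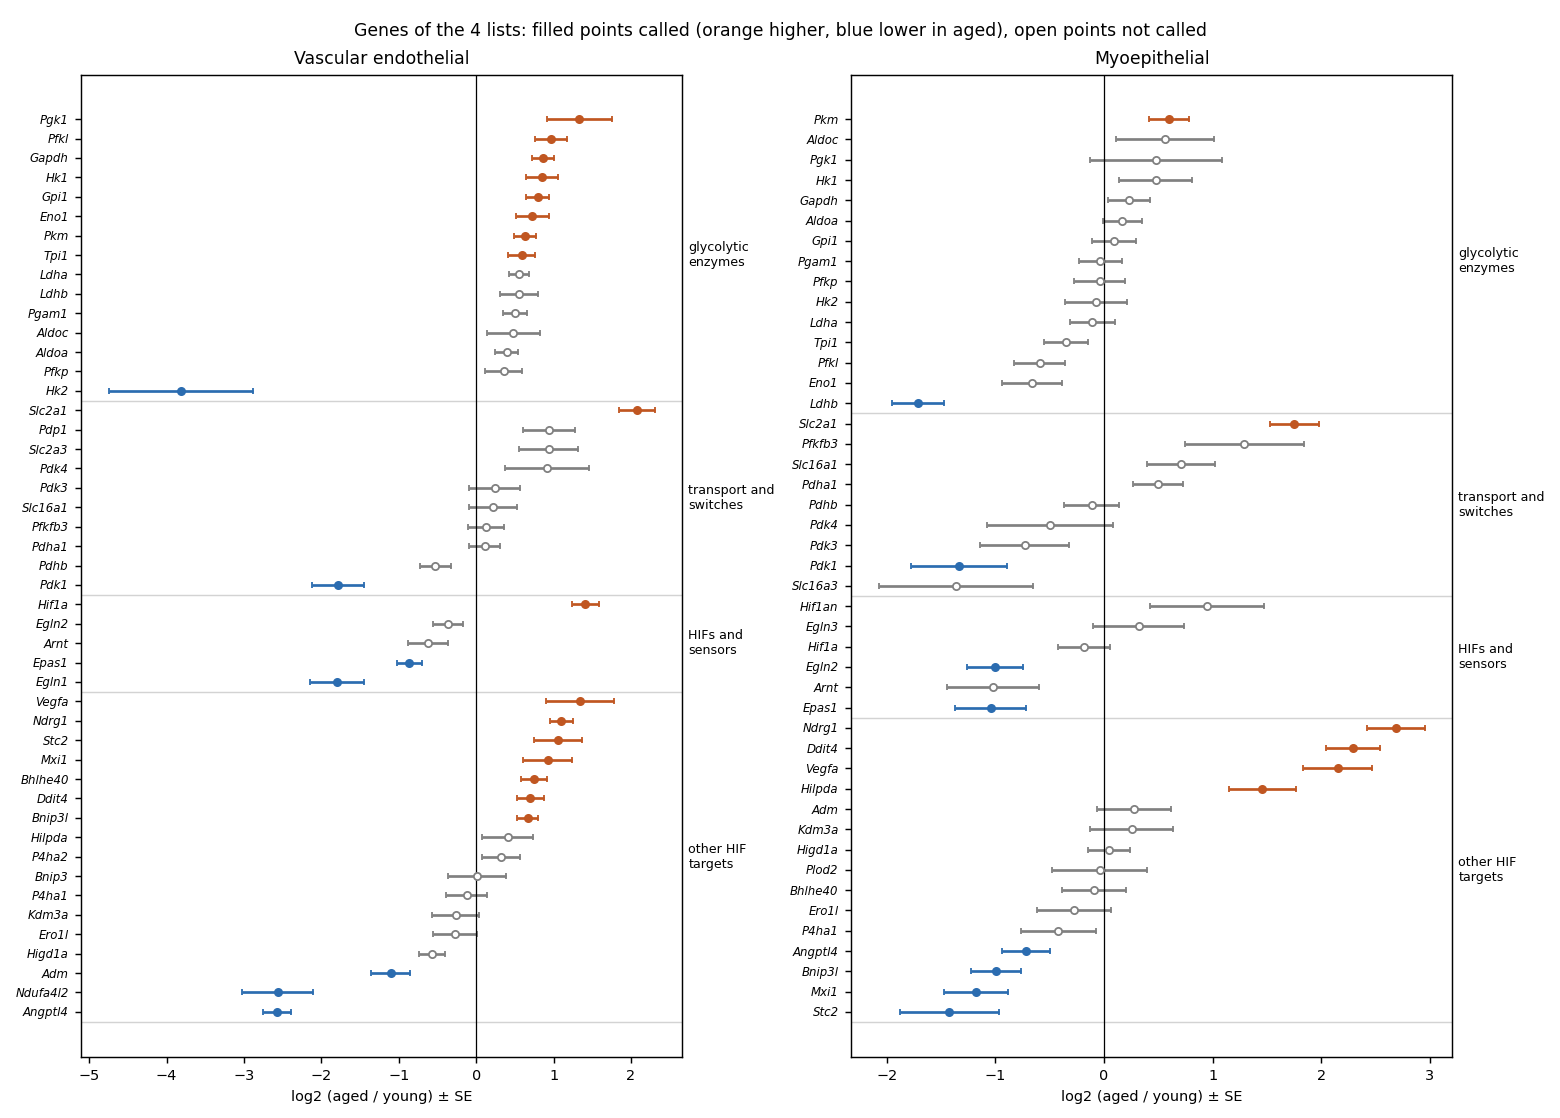
Log2 difference (aged over young, horizontal axis) with its SE for the tested genes of the 4 lists in vascular endothelium and myoepithelial cells, filled where called, orange for higher and blue for lower in aged mice. In vascular endothelium 8 of 15 glycolytic enzymes are filled orange, while in myoepithelial cells Pkm is the 1 enzyme that is.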

How the data were processed

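Single-cell RNA libraries were made by the authors from 7 mice with the 10x 3′ v2 kit and, per the submitters' processing notes and the study's methods, mapped to mm10 with Cell Ranger 2.0. The values used are the raw UMI counts per gene and cell that the authors deposited, after their filters on UMIs, genes and mitochondrial UMIs. The mitochondrial fraction deposited by the authors per cell was used only to describe the libraries, and the cell cycle scores deposited by the authors entered only through the phase call derived from them, used for the alternative of G1 cells. Cell types are those the authors assigned after clustering, and doublets were estimated and judged by the authors before deposit; no further caller was run here.

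For every cell type, the raw counts of a mouse were added up where it had at least 3 cells of that type. Totals were 6652599 to 16999625 UMIs per mouse, so low genes such as Pgk1 rest on few UMIs. Genes were filtered with filterByExpr, scaled by TMM and tested with the quasi-likelihood test of edgeR 4.0.16 in R 4.3.3, aged against young, in 8 cell types with all 7 mice, and p-values were adjusted by Benjamini and Hochberg over all genes of the type. A gene was called at an adjusted p below 0.05 and 1.5-fold. The difference between cell types was tested with an interaction over 6 types with the mouse as a block. Shares of cells were computed after each cell was thinned to 2000 UMIs. The p-values set each difference against counting error and the spread between these mice, with the spread estimate of a gene drawing on other genes. They cover no difference in handling that goes with age. The fits were checked on simulated data.

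The text names all 10 members in every type, up to 4 called genes per list and type by size of change, and the nearest genes by Pearson's r, where a gene had to reach 10 CPM in at least 1 type. Members and lists were chosen with earlier results of these data known. Promoter windows and annotation are from RefSeq (GRCm38.p6) and GENCODE vM21. Alternatives were RLE factors, DESeq2 1.42.0, no low-count filter, no ribosomal protein or mitochondrial genes, thinned cells, a minimum of 10 cells in a mouse, dropping the fold criterion, G1 cells, a block of the label letters and each mouse left out. Cells without a fibroblast marker UMI were added after seeing the data. Python 3.11.15, pandas 2.3.3, scipy 1.17.1, numpy 2.4.6 and matplotlib 3.10.9 were used.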

Additional observations from a re-analysis of the deposited data

Results flagged for a closer look

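Of the tested members, the 4 aged mice of each cell type were examined for a mouse far from the other 3, a rule that chance meets in about 1 of 20 groups, and it was met 2 times over 59 groups. Pdk1 in luminal AV cells stood at 19.0 scaled CPM in Aged D, against 8.49 to 9.82 in the other aged mice. Hk2 in Macrophage Mb stood at 1057 scaled CPM in Aged D, which had 3 cells of this type.

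For 7 members the age difference itself differed between cell types in the edgeR interaction test over 6 types. The adjusted p was 4.70e-08 for Hif1a, higher with age in vascular endothelium in 4 of 4 aged mice and lower in both luminal types in 4 of 4. It was 3.68e-05 for Slc2a1, higher with age in vascular endothelium and myoepithelial cells. It was 0.000241 for Eno1, 0.00179 for Hk2, 0.00426 for Pkm, 0.00792 for Ldha and 0.0177 for Pdk1.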

How the results depend on the processing

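Hif1a in vascular endothelium and both luminal types and Slc2a1 in vascular endothelium and myoepithelial cells were called under all 16 alternatives run, with log2 differences of 1.26 to 1.61, -1.28 to -0.96, -1.56 to -1.20, 1.74 to 2.23 and 1.50 to 1.91. No member or called list gene turned its direction with a call. Of the log2 differences of members under alternatives, 896 kept their side of the call, 34 lost and 8 gained it.

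The number of members called in myoepithelial cells was 1 instead of 3 with thinned cells and with G1 cells, where Pdk1 was below the filter and Pkm lost its call, and 1 to 3 with each mouse left out. In vascular endothelium it was 4 instead of 7 with thinned cells and with G1 cells, where Hk2 and Pgk1 were below the filter, as was Pdk1 with thinned cells, and Pkm fell under 1.5-fold with G1 cells (0.53), 6 by DESeq2, 8 without a fold minimum and 5 to 8 with each mouse left out. In luminal HS cells it was 1 to 3 with each mouse left out. In pericytes Aldoa was lost, giving 0, with RLE factors, no filter, thinned cells, G1 cells and the block, and 0 to 1 members were called with each mouse left out.

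The label letters name different animals, and the deviations of same-lettered mice correlated at -0.17 to 0.07, so they were not taken as pairs. With the replicate block 2 members were called in myoepithelial cells, 1 in luminal HS cells, 5 in vascular endothelium and 0 in pericytes. For the wider lists the replicate block gave 2 genes in luminal HS cells and 1 in pericytes.

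List genes called numbered 14 in myoepithelial cells (9 thinned), 5 in luminal HS cells (9 without the filter, 1 to 6 with each mouse left out), 6 in luminal AV cells (3 to 6), 0 in fibroblasts (3 without the filter, 0 to 1), 24 in vascular endothelium (14 thinned) and 2 in pericytes (1 with RLE, no filter, thinned or G1 cells, 1 to 2 with each mouse left out). The cell type of the highest mean was the same for 6 of the 10 genes with at least 10 cells per mouse, 6 in young mice alone, 7 with thinned cells and 8 in aged mice alone. Hif1a was highest in luminal HS cells in the young and in vascular endothelium in the aged mice. Leaving out the filter moved the median of all genes by 0.12 in myoepithelial cells, -0.21 in fibroblasts, -0.14 in pericytes, -0.51 in Macrophage Mb and 0.21 in T and B cells (log2). At least 10 cells per mouse could not be run in Macrophage Mb and T and B cells, nor G1 cells in T and B cells.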
